A study of Rattus norvegicus with 6 samples.

Results

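Hippocampal tissue was profiled for the mRNAs of 9 genes that mark 2 neighbouring brain regions, in order to show what the arrays hold of tissue that a dissection can carry over. The striatal markers were Drd1, Drd2, Adora2a, Ppp1r1b, Rgs9 and Pde10a, and the thalamic markers were Tcf7l2, Prkcd and Slc17a6. Probes were assigned to a gene through the transcript accession that the array files give for each probe, and all probes of a gene were kept whatever their values. Of the 9 genes, 8 had a probe, with 11 probes in all, among 15168 named genes on the array. No probe was matched to Tcf7l2, so this transcription factor of thalamic neurons has no value here. The AD group (3 arrays) came from male Sprague Dawley rats given Aβ1-42 oligomers in both lateral ventricles, an injected model of Alzheimer's disease in which the rats carry no transgene. The Sham group (3 arrays) came from male Sprague Dawley rats that received the vehicle by the same route. The rats were adults per the study's methods. Each array held 1 sample of whole hippocampal tissue, and the labels do not say which animal it came from, so p-values measure the spread between these samples, which may be technical.

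The striatum lies across the lateral ventricle from the hippocampus, and its main cells are spiny projection neurons that release GABA. One class of these neurons carries the D1 dopamine receptor and the other the D2 dopamine receptor with the A2a adenosine receptor, and in both classes DARPP-32, the product of Ppp1r1b, relays dopamine signals by inhibiting a protein phosphatase. The thalamus lies below the hippocampus, and its relay neurons release glutamate through VGLUT2, the product of Slc17a6. None of these genes is confined to one region, since hippocampal neurons also transcribe dopamine and adenosine receptors. In tissue RNA, fewer cells of a type and less RNA per cell cannot be told apart.

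The level of a probe was its log2 processed signal minus the 75th percentile of its array, so a level of 0 is that percentile. Levels of different probes are not comparable with each other, and each probe was compared between arrays only. AD was compared with Sham by limma's moderated test over the 22794 probes whose signal stood well above background on 3 or more arrays, and a change is AD minus Sham on the log2 scale. A probe was called at a Benjamini-Hochberg adjusted p under 0.05, which 12.6% of all tested probes were, 4.16% higher in AD and 8.43% lower in AD. All 11 member probes were tested. The 75th percentile of the signal lay between 796 and 932 on the AD arrays and was 753, 755 and 429 on Sham replicates 1 to 3, so Sham replicate 3 was the dimmest array. The AD arrays shared a scan, Sham replicates 1 and 2 shared another scan of that day, and Sham replicate 3 had a scan day of its own. The effects of scan and of group therefore cannot be told apart. All 10 matched genes of a list of hippocampal principal neuron markers were tested. So were all 6 striatal markers, so passing this filter does not tell hippocampus from neighbouring tissue.

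Of the 6 striatal markers, Ppp1r1b alone was called by its brightest probe, and it was higher in AD. Neither of the 2 measured thalamic markers was called. The dimmer probe of Pde10a was also called higher in AD, while its brighter probe was not called. The changes of the 11 probes ran between -0.65 and 0.80. An unadjusted limma p under 0.05 was found for 5 of the 11, and for 7131 of all 22794 tested probes. The 3 AD values lay above all 3 Sham values for 5 probes, below all 3 for 2 and overlapped for 4, and 39% of all tested probes had groups that did not overlap.

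**Figure D1:**
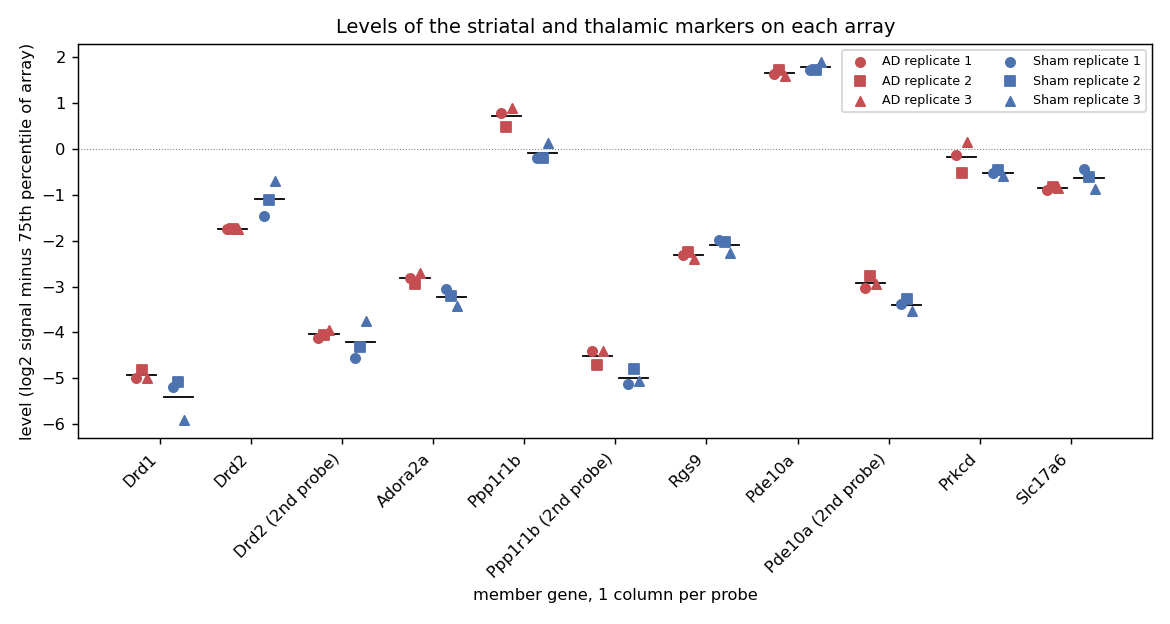
Level of each member probe (y axis, log2 signal minus the 75th percentile of the array) on the 3 AD arrays, left, and the 3 Sham arrays, right, with 1 column per probe, marker shape giving the replicate and a bar at each group's mean. The brighter Ppp1r1b probe reached 0.48 to 0.89 on the AD arrays, above all Sham arrays, and the brighter Drd2 probe sat at -1.74 on all AD arrays with a wide spread among Sham arrays.

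Ppp1r1b encodes DARPP-32, a phosphatase inhibitor that is dense in striatal projection neurons and is also known from choroid plexus epithelium. Its brighter probe, A_64_P005228, had levels of 0.77, 0.48 and 0.89 in AD replicates 1 to 3, against -0.19, -0.20 and 0.12 in Sham replicates 1 to 3. All AD arrays were above all Sham arrays. The mean was 0.71 ± 0.21 in AD and -0.09 ± 0.18 in Sham (SD, n = 3 each), a 1.75-fold higher signal in AD with a log2 change of 0.80 ± 0.15 (SE, 95% interval 0.44 to 1.17, limma adjusted p = 0.0286). The dimmer probe, A_64_P005223, had levels of -4.41, -4.70 and -4.40 in AD and -5.12, -4.79 and -5.06 in Sham. Its groups did not overlap either, and its change of 0.49 ± 0.14 did not pass the threshold (limma adjusted p = 0.0671). The call of the brighter probe was lost when any of AD replicates 1, 2 or 3 or Sham replicates 1 or 2 was left out, with limma adjusted p between 0.0516 and 0.132 and changes of 0.72 to 0.92. In those fits 0 to 2 of all 22794 probes were called, and without Sham replicate 3 the gene remained called (adjusted p = 0.0227).

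Drd2 encodes the D2 dopamine receptor, which lowers cyclic AMP in striatal neurons of the indirect pathway and in dopamine neurons themselves. Its brighter probe, A_42_P625922, was at -1.74 in AD replicates 1, 2 and 3, against -1.47, -1.11 and -0.71 in Sham replicates 1 to 3. The AD arrays were lower than all Sham arrays and almost equal to each other, with an SD of 0.0015 against 0.38 in Sham. The change was -0.65 ± 0.19 (SE, 95% interval -1.12 to -0.18) and did not pass the threshold (limma adjusted p = 0.078). Its dimmer probe, A_44_P121351, had levels of -4.12, -4.05 and -3.94 in AD and -4.55, -4.31 and -3.74 in Sham. These overlapped, and the change of 0.16 ± 0.21 had the opposite sign (95% interval -0.35 to 0.67, limma adjusted p = 0.639).

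Drd1 encodes the D1 dopamine receptor, which raises cyclic AMP in striatal neurons of the direct pathway. Its only probe was among the dimmest members and was well above background on all 3 AD arrays and on 2 of the 3 Sham arrays, failing on Sham replicate 3. Levels were -5.00, -4.83 and -4.98 in AD, against -5.19, -5.09 and -5.92 in Sham. The AD arrays were above the Sham arrays, of which Sham replicate 3 was far below the others. The change was 0.46 ± 0.23 (SE, 95% interval -0.09 to 1.01) and was not called (limma adjusted p = 0.224). With the comparison kept within the first scan day, which leaves out Sham replicate 3, it was 0.20 (limma adjusted p = 0.172).

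Adora2a encodes the A2a adenosine receptor, which shares the indirect pathway neurons with Drd2. Levels were -2.81, -2.94 and -2.72 in AD, against -3.05, -3.20 and -3.42 in Sham. The groups did not overlap, and the change of 0.41 ± 0.12 (SE, 95% interval 0.10 to 0.71) did not pass the threshold (limma adjusted p = 0.083). Drd2 and Adora2a mark the same striatal neurons, and the change of Adora2a was opposite in sign to that of the brighter Drd2 probe and had the sign of the dimmer one. None of these probes was called.

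Rgs9 encodes a regulator that speeds the shut-off of G proteins and has a long splice form in striatal neurons. Levels were -2.32, -2.25 and -2.39 in AD, against -1.98, -2.03 and -2.27 in Sham, so that the groups overlapped only between AD replicate 2 and Sham replicate 3. The change was -0.23 ± 0.11 (SE, 95% interval -0.49 to 0.04, limma adjusted p = 0.212). Within the first scan day, that is, without Sham replicate 3, it was -0.32 and just past the threshold (limma adjusted p = 0.0497).

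Pde10a encodes a phosphodiesterase that breaks down cyclic AMP and cyclic GMP and is dense in both classes of striatal projection neuron. Its brighter probe, A_42_P584045, had levels of 1.64, 1.72 and 1.58 in AD, against 1.72, 1.72 and 1.89 in Sham. The 6 values spanned 0.32, the narrowest range of the 8 measured members, and the change of -0.13 ± 0.09 was not called (95% interval -0.36 to 0.09, limma adjusted p = 0.375). The dimmer probe, A_64_P031910, had levels of -3.03, -2.78 and -2.94 in AD and -3.39, -3.27 and -3.54 in Sham. All AD arrays were above all Sham arrays for this probe, and its change of 0.48 ± 0.11 passed the threshold narrowly (limma adjusted p = 0.0465). The probes of this gene thus disagreed in direction, and the array files used here hold no probe sequences that would show which transcripts each detects. The call of the dimmer probe was lost when any 1 of the 6 arrays was left out, with adjusted p between 0.0537 and 0.139.

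Prkcd encodes protein kinase C delta, a marker of thalamic relay neurons that other brain cells also carry. Levels were -0.14, -0.52 and 0.15 in AD, against -0.52, -0.46 and -0.59 in Sham. AD replicates 1 and 3 were above all Sham arrays, and AD replicate 2 lay among them. The change was 0.35 ± 0.18 (SE, 95% interval -0.08 to 0.78, limma adjusted p = 0.228). The range within AD was 0.67, wider than the 0.13 within Sham.

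Slc17a6 encodes VGLUT2, the vesicular glutamate transporter of thalamic and other subcortical neurons. Levels were -0.89, -0.83 and -0.86 in AD, against -0.44, -0.61 and -0.88 in Sham. Sham replicates 1 and 2 were above the AD arrays, and Sham replicate 3 was level with them. The change was -0.22 ± 0.13 (SE, 95% interval -0.53 to 0.09, limma adjusted p = 0.298). Within the first scan day it was -0.34 (limma adjusted p = 0.051). The point estimates of Prkcd and Slc17a6 thus had opposite signs.

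**Figure D2:**
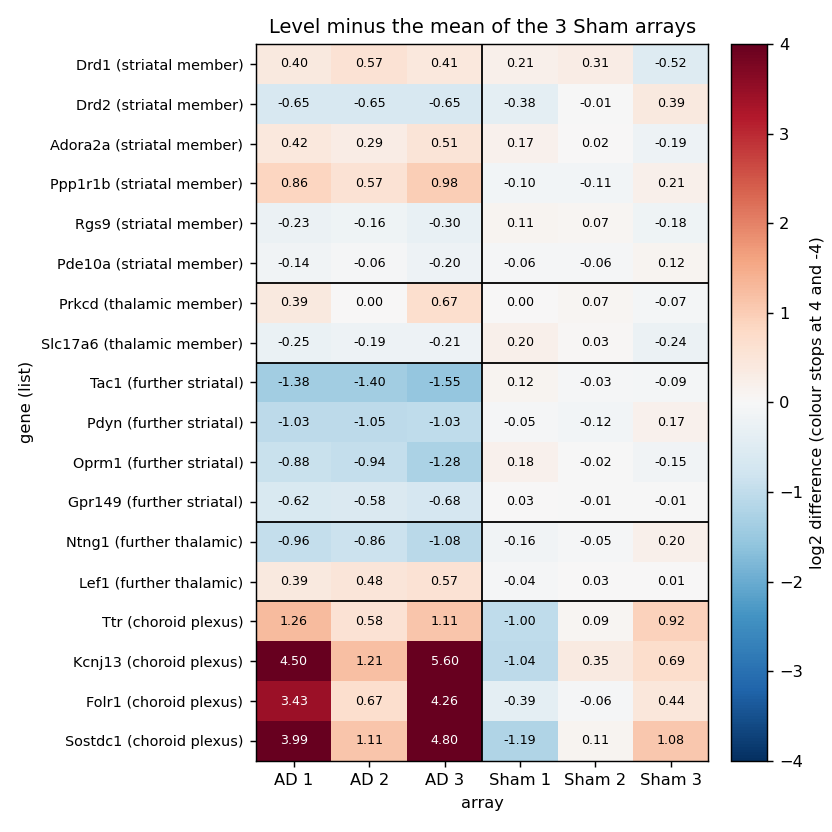
Level of each gene on each array minus the mean of its 3 Sham arrays (colour and printed value, log2), with AD arrays left of Sham arrays and rows grouped as striatal members, thalamic members, called genes of the longer striatal and thalamic lists, and 4 choroid plexus genes. The striatal and thalamic members stay between -0.65 and 0.98, whereas the choroid plexus gene Kcnj13 reaches 5.60 in AD replicate 3.

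The members were next compared array by array, since each array held a separate tissue sample. Among the 6 striatal markers, the highest array was AD replicate 3 for Adora2a and Ppp1r1b, Sham replicate 3 for Drd2 and Pde10a, AD replicate 2 for Drd1 and Sham replicate 1 for Rgs9. No array was highest for more than 2 of the 6. Over the 28 tested striatal genes, which add a longer list described further on, Sham replicate 3 was highest for 12 and AD replicate 3 was lowest for 9. The longer list's summed linear signal was 33.4 to 35.9 in AD and 41.0, 41.3 and 46.6 in Sham replicates 1 to 3. Such a sum is carried by the brightest probes. The brightest of the list in Sham was Pdyn, with a mean level of 3.37 there and 2.33 in AD, so the sum is not a measure of striatal tissue. Prkcd was highest in AD replicate 3 and Slc17a6 in Sham replicate 1. The range over the 6 arrays was 0.32 to 1.09 for the 8 members.

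Choroid plexus, the epithelium in the ventricles that borders the hippocampus, was read on the same arrays. Its 10 tested marker genes ranged over 2.27 to 6.64 across the arrays, with AD replicate 3 highest for 9 of the 10. Folr1, a folate receptor, was at 0.74, -2.01 and 1.58 in AD, against -3.07, -2.74 and -2.25 in Sham. Kcnj13, a potassium channel, was at 0.95, -2.34 and 2.05 in AD and at -4.59, -3.20 and -2.86 in Sham. Both were high in AD replicates 1 and 3 and much lower in AD replicate 2. Of the 12 listed genes, 10 were tested and 0 were called, with a median change of 2.14 and all 10 higher on average. Their summed linear signal, relative to the 75th percentile, was 83.2 to 153.8 in AD and 28.3 to 104.7 in Sham. Most of this sum was Ttr, the thyroxine carrier of the choroid plexus. Without it the sum of the other 9 genes was 21.4, 3.20 and 37.9 in AD replicates 1 to 3, against 1.67 to 3.72 in Sham. By this sum AD replicate 2 lay within the Sham range. By gene, it was above all Sham arrays for Kcnj13, Folr1, Aqp1 and Sostdc1, and not for the other tested genes. Cldn2 was not tested, being detected on 2 arrays of AD and 0 of Sham. From highest to lowest, 9 of these 10 genes had the order AD replicate 3, 1, 2 within AD. Both Ppp1r1b probes, Adora2a and Prkcd had that order too. Rgs9 and the brighter Pde10a probe had the reverse order. Drd1, Slc17a6 and the dimmer Pde10a probe were highest in AD replicate 2, and the Drd2 probes had neither order. With the normexp background correction described further on, the dimmer Ppp1r1b probe was at -3.23, -3.24 and -3.29 in AD replicates 1 to 3. It lost the order 3, 1, 2 there, which the brighter Ppp1r1b probe, Adora2a and Prkcd kept. How many of all tested probes have the order 3, 1, 2 was not counted. Without AD replicate 3 the change of Ppp1r1b was 0.72 and without AD replicate 2 it was 0.92. The part of choroid plexus RNA in these members was not tested.

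**Figure D3:**
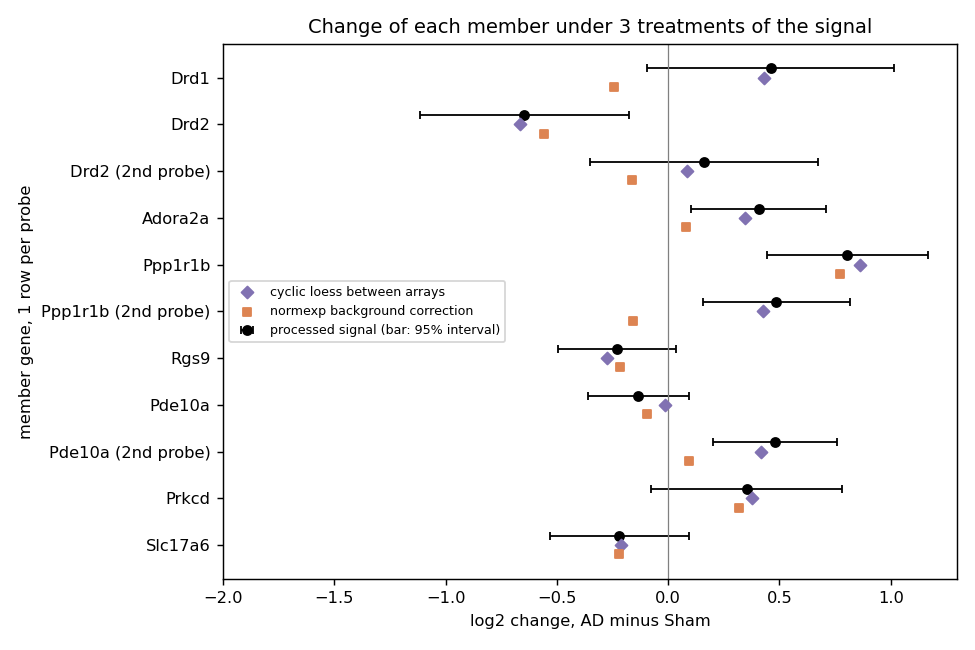
Log2 change, AD minus Sham (x axis), of each member probe (rows) from the processed signal (circles, bars are 95% intervals), after cyclic loess normalization (diamonds) and after normexp background correction (squares). The brighter Ppp1r1b probe stays between 0.77 and 0.86, while after normexp correction the dimmer Ppp1r1b probe turns to -0.16 and Drd1 to -0.25.

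The changes of dim members depended on how background was handled. Normexp correction, which models background instead of taking the scanner software's subtracted signal, called 7.63% of all tested probes and moved the median change of all probes to -0.15, from a median of -0.01 with the processed signal. Of the 11 member probes, 5 had a mean level below -2.5. All 5 were higher in AD on average with the processed signal, by 0.16 to 0.49. After normexp correction the changes were -0.25 for Drd1, -0.16 for the dimmer Drd2 probe, -0.16 for the dimmer Ppp1r1b probe, 0.08 for Adora2a and 0.09 for the dimmer Pde10a probe, and none of the 5 was called. Over all 8945 tested probes below that level the median change was 0.05 with the processed signal and -0.22 after normexp correction. The 6 brighter member probes kept their signs. Ppp1r1b was at 0.77 and remained called (limma adjusted p = 0.0262), and Drd2 was at -0.56 (limma adjusted p = 0.0812). Drd1 was lowest in Sham replicate 3 with the processed signal and highest there after normexp correction, at -3.43, -3.28 and -3.43 in AD against -3.30, -3.26 and -2.84 in Sham. Cyclic loess, a normalization that removes level-dependent shifts between arrays and was added after the data were seen, kept the sign of all 11 changes and called only the brighter Ppp1r1b probe among them (0.86, limma adjusted p = 0.0249).

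**Figure D4:**
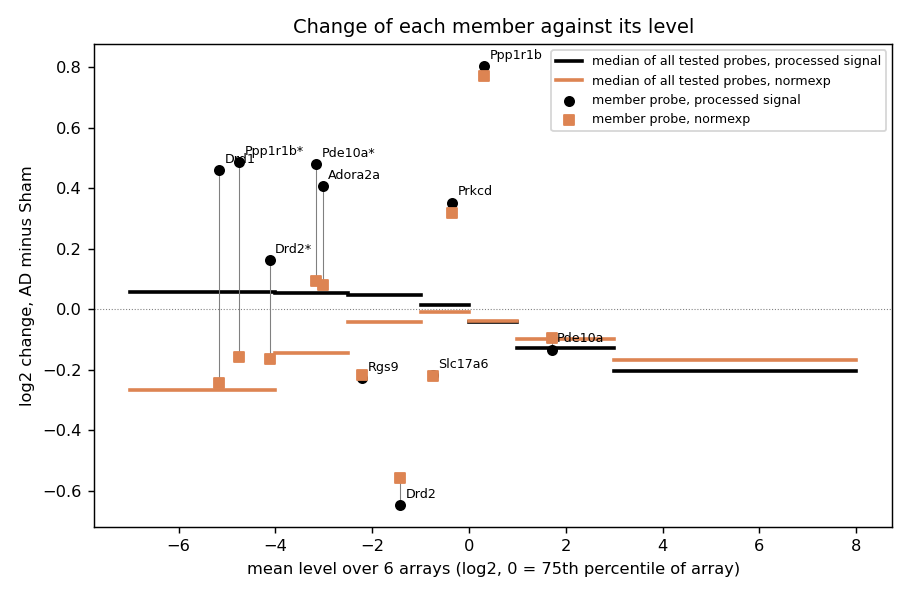
Log2 change, AD minus Sham (y axis), against mean level over the 6 arrays (x axis) for the member probes with the processed signal (black circles) and after normexp correction (orange squares), an asterisk marking the dimmer probe of a gene. Horizontal lines give the median change of all tested probes in each range of level, and below a level of -2.5 all 5 members move down after normexp correction, as the medians do.

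A longer list of striatal genes gave a different set of calls. Of 33 genes, 27 were matched and 22 tested. Of these, 0 were called higher in AD, 4 were called lower in AD and 18 were not called. Over all tested probes 4.16% were called higher in AD and 8.43% lower. The median change of the list was -0.12, against -0.05 over named genes by their brightest probe and -0.01 over all tested probes. Tac1, the precursor of substance P, was at 0.12, 0.10 and -0.05 in AD, against 1.61, 1.46 and 1.41 in Sham, a change of -1.44 ± 0.10 (limma adjusted p = 0.0183). Pdyn, the precursor of dynorphins, was at 2.34, 2.32 and 2.34 in AD and 3.32, 3.25 and 3.54 in Sham, a change of -1.04 ± 0.10 (limma adjusted p = 0.0183). Both peptides belong to the striatal neurons that carry Drd1, and their changes were negative while that of Drd1 was not called. Oprm1, the mu opioid receptor, fell by 1.03 ± 0.15 and Gpr149, an orphan receptor, fell by 0.63 ± 0.08 on the log2 scale. All 4 genes had AD arrays below all Sham arrays and remained called after normexp correction.

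These peptides and receptors are not particular to the striatum, since dentate granule cells transcribe Pdyn and hippocampal interneurons transcribe Tac1 and Oprm1. Of 9 interneuron markers, all tested, 4 were called lower in AD (Vip, Slc32a1, Gad1 and Npy), 0 were called higher, and the median change was -0.65. Their summed linear signal was 43.1 to 46.3 in AD and 72.6 to 77.5 in Sham. Vip, a peptide of interneurons, fell by 1.34 ± 0.11. Of 7 general neuronal markers, 6 were tested and 4 were called lower, with a median of -0.51 and a summed linear signal of 40.2 to 47.3 in AD and 52.8 to 58.9 in Sham. The part of these cells in the changes of Tac1, Oprm1 and Pdyn was not tested.

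Other genes that mark striatal projection neurons did not pass the threshold. Gnal, the G protein that couples D1 and A2a receptors to adenylyl cyclase, was at 1.48, 1.32 and 1.12 in AD, against 0.05, 0.97 and 0.10 in Sham, a change of 0.93 ± 0.27 (limma adjusted p = 0.0697). Penk, the enkephalin precursor of the neurons that carry Drd2, had a change of -0.13 ± 0.14 (limma adjusted p = 0.546). Both were named after their values were seen. The matched genes that were not tested included Six3, a transcription factor of the developing and adult striatum, which was above background on 0 of the 6 arrays. Isl1, Gpr6 and Ido1 were each detected on 1 AD array and on 0 of the Sham arrays, and Drd3 on 1 array of each group.

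The longer thalamic list held 14 genes, of which 11 were matched and 10 tested. Lef1 was called higher in AD, Ntng1 was called lower in AD, and 8 were not called, with a median change of 0.07. Ntng1, a cell surface protein that guides axons, was at -1.20, -1.09 and -1.31 in AD, against -0.39, -0.29 and -0.03 in Sham, a change of -0.96 ± 0.12 (limma adjusted p = 0.0193). A dimmer probe of the gene changed by -0.15, and the mean of the gene's probes, at -0.55, was not called (limma adjusted p = 0.0979). Lef1, a transcription factor of Wnt signalling from the same family as Tcf7l2, was at -3.63, -3.54 and -3.45 in AD and -4.06, -3.99 and -4.01 in Sham. Its change of 0.48 ± 0.09 (limma adjusted p = 0.0274) was 0.04 after normexp correction and not called there (adjusted p = 0.838). Shox2, a transcription factor of thalamic neurons, was above background on 0 of the 6 arrays. In the habenula, which adjoins the thalamus, 6 of 10 listed genes were tested and only Tac1, which stands on both lists, was called, while Gpr151 and Chrnb3 were above background on 0 arrays.

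**Figure D5:**
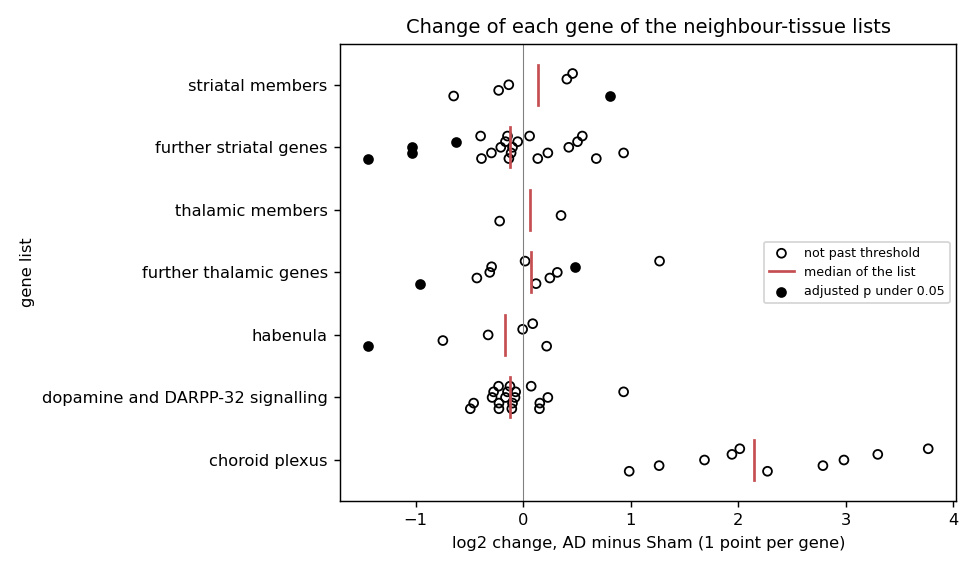
Log2 change, AD minus Sham (x axis), of each tested gene (1 point per gene, from its brightest probe) in 7 lists (rows), filled where the limma adjusted p was under 0.05, with a red line at the median of each list. The striatal and thalamic lists have medians between -0.12 and 0.14, and the choroid plexus list, with 0 called genes, has a median of 2.14.

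The proteins through which the striatal receptors act were measured in a list of dopamine and DARPP-32 signalling genes. Of 20 genes, 19 were tested and 0 were called, and 5 of the 19 were higher in AD on average. The median change was -0.12. Gnal had the largest change, followed by Prkar2b, a regulatory subunit of protein kinase A, which averaged 1.24 in AD and 1.74 in Sham. All its AD arrays were below all its Sham arrays, and the change was -0.49 ± 0.14 (limma adjusted p = 0.0746). Adcy5, the adenylyl cyclase of striatal neurons, had a change of -0.10 ± 0.27, with an adjusted p of 0.834, and was named after its values were seen.

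Among 27 paralogues of the members, 21 were tested, and Lef1 was called higher in AD and Pde11a lower in AD. Pde11a, a phosphodiesterase of the ventral hippocampus that shares its substrates with Pde10a, was at -4.01, -4.01 and -3.94 in AD, against -3.04, -3.32 and -3.50 in Sham, a change of -0.70 ± 0.13 (limma adjusted p = 0.0293). Slc17a7, the cortical and hippocampal counterpart of Slc17a6, was at -2.68, -2.46 and -2.65 in AD and -2.24, -2.28 and -2.07 in Sham, with a change of -0.40 ± 0.11 that did not pass the threshold (limma adjusted p = 0.0592). Tcf7l1, a family member of Tcf7l2, was at 1.54, 1.56 and 1.55 in AD, against -0.13, -0.15 and 2.03 in Sham. Sham replicate 3 was apart from the other Sham arrays for this gene, and its change of 0.97 ± 0.59 was not called (limma adjusted p = 0.313). Slc17a7 and Tcf7l1 were named after their values were seen.

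Genes with the most similar profile to each member were taken as those with the smallest root mean square difference over the 6 arrays, each profile centred on its own mean, among 11972 named tested genes. This is a description only. For Ppp1r1b these were Rassf3, Rlbp1 and Tmem88b, with differences of 0.075 to 0.076, and their changes were 0.68, 0.75 and 0.74. For Drd2 they were Epyc, Chia and Sertad4, with differences of 0.047 to 0.072. Drd1 was nearest to Jakmip2, Pnpt1 and Dnase1, and Adora2a to Traf6, Fnbp4 and Rbms1. Rgs9 was nearest to Tbc1d5, Bcl2 and Syce1, and Pde10a to Mnt, Zfp512b and Rapgef2. Prkcd was nearest to Stk39, Dnaaf5 and Fzd6, and Slc17a6 to Aifm2, Trmt12 and Syce1. No member was among the 3 nearest genes of another member.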

How the data were processed

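The authors deposited 6 scanner outputs of single-colour rat arrays, with background-subtracted processed intensity, median and local background intensity per spot, made with Agilent Feature Extraction 11.0.1.1 per the file headers. They also deposited a table of log2 values whose scaling is not stated. All its columns had a median of 6.57, its genes were not centred, it ran in the direction of the scanner values, and 2 AD columns were exchanged relative to the scanner output, which leaves group comparisons unaffected. No normalization is given in the sources used here.

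Control and outlier-flagged spots were left out, the spots of a probe were averaged, and log2 levels were centred on each array's 75th percentile. Accessions were matched without versions to RefSeq symbols (GRCr8), naming 18005 of 30367 probes (59.3%). The array design uses another build, so no coordinates are given. AD and Sham, as labelled, were compared with lmFit and eBayes (limma 3.58.1, R 4.3.3), two-sided, without covariates. The script was tested on simulated data with 100 probes changed by 1 and 100 by 2 on the log2 scale, of which 43 and 80 were recovered. The number of arrays limits the precision.

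The members and lists were chosen with earlier results of these data known. Named genes were all members, up to 4 called genes of a list with the largest change, or 2 where none was called, and the 3 nearest profiles. Exceptions are stated. For normexp (offset 50) the median signal was used, since the mean signal planned for it was not among the columns used here. Other alternatives were other scalings, filters, blocks, weights, the methods' t-test, the mean of a gene's probes, each array left out and, added later, cyclic loess.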

Additional observations from a re-analysis of the deposited data

How the results depend on the processing

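The count of called probes, 2870, was 1740 with normexp correction, 358 with no filter on dim probes, 9872 with array weights, 4453 with scan day as a fixed block, 0 with scan as a random block and 1852 with the methods' t-test after Benjamini-Hochberg adjustment. It was 0 to 4453 with 1 array left out, the highest without Sham replicate 3. With scan as a random block, 3671 probes had an unadjusted p under 0.05. The share of called probes that were higher in AD was 33.0% and became 17.5% with normexp correction and 53.3% with scaling on probes detected on all arrays. The number of striatal members called, 1, was 0 with no filter on dim probes, with the random block and with the methods' t-test, 4 with array weights, 2 with scan day as a fixed block and 0 to 2 with 1 array left out. The number of thalamic members called, 0, was 1 with array weights.

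With the replicate block 0 probes and 0 striatal members were called (6483 probes at an unadjusted p under 0.05). Same-numbered arrays deviated together with correlations of 0.028, 0.071 and 0.138 across probes, so the numbers were not taken to pair the samples.

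The 2 alternative filters on dim probes, the methods' t-test and the replicate block keep each change as it was, so they could not turn it. The mean of a gene's probes does the same for a gene with a single probe. Scan day as a fixed block and leaving out Sham replicate 3 gave the same values, and both are counted below. Of 227 member changes over all alternatives, these included, 5 turned in direction. These were Drd1 (-0.25), the dimmer Drd2 probe (-0.16) and the dimmer Ppp1r1b probe (-0.16) with normexp correction, the dimmer Drd2 probe without Sham replicate 1 (-0.013, against up to 0.39 with another array left out), and Pde10a (0.17) as the mean of its probes. The cause was not tested. Ppp1r1b ran between 0.65 and 0.94 and passed the threshold in 12 of 21 alternatives (adjusted p 0.00157 to 0.217), and the dimmer Pde10a probe in 4 of 20. Drd1 had no value with probes above background on all 6 arrays. Probes near background carry the least certain changes.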

Other observations

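Of 9 oligodendrocyte markers, all tested, 5 were called higher in AD and 0 lower, with a median change of 0.53. Myrf, a transcription factor of myelination, changed by 0.65 ± 0.14 and by -0.07 after normexp correction, where it was not called. Cldn11, a myelin junction protein, rose by 0.64 ± 0.11, Mobp by 0.55 ± 0.13 and Cnp by 0.55 ± 0.11. Of these, Cldn11 alone was still called after normexp correction. Of 4 tested genes of committed oligodendrocyte precursors, Bmp4, a secreted growth factor, was called higher at 0.92 ± 0.16. Of 4 vessel genes, 2 were called higher, the pericyte channel subunit Abcc9 (0.99 ± 0.12) and the endothelial junction protein Cldn5 (0.42 ± 0.09). Another probe of Abcc9 changed by 0.40. The vessel genes Flt1 and Pecam1 were not called, with changes of 0.24 and -0.24, and Flt1 was at 0.01 after normexp correction.

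Of 10 tested hippocampal principal neuron genes, Fibcd1 (-0.66 ± 0.14) and Spink8 (-0.60 ± 0.12), both of CA1 neurons, were called lower and 0 higher. After normexp correction neither was called (adjusted p = 0.0675 and 0.0714). Of 7 tested hypothalamic genes, the peptide precursor Gal was called lower at -0.41 ± 0.10, and not after normexp correction (adjusted p = 0.065). Another probe of Gal changed by 0.14. Of 5 tested midbrain dopamine neuron genes, Ddc, which makes dopamine and serotonin, was called lower at -0.83 ± 0.19, while another of its probes changed by 0.13. The dopamine transporter Slc6a3 was above background on 0 arrays. The 5 astrocyte and 6 microglia genes held 0 called genes, and the largest changes were 0.93 for Gfap and -0.32 for Slc1a3 among astrocyte genes and -0.27 for Aif1 and -0.24 for Cx3cr1 among microglia genes.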
